A study of Mus musculus with 11 samples.

Results

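Car4, Chil3, Ear1, Ear2, Krt79, Plet1, Cpne5 and Rab44 are genes by which alveolar macrophages (AMs) of the mouse lung differ from other tissue macrophages (macs). These 8 of the 27998 genes in the count tables were chosen from a list of AM genes, with their levels in the WT tissues and their response to loss of Zeb2 already known, so both patterns in the lung are described below without a test. Single-cell RNA sequencing with 3′ counting of unique molecular identifiers (UMIs) had been run on macs sorted from 5 tissues, with 1 library per group and 11 libraries in all. They comprised AMs, liver Kupffer cells (KCs), splenic macs (SMs), colonic macs (CMs) and brain microglia, each from WT mice carrying the floxed allele without cre (Zeb2fl/fl) and from mice in which cre deletes it (Zeb2KO), plus KCs of Nr1h3fl/fl mice without cre as an additional WT library. Mice were C57Bl/6 animals of both sexes, 6 to 8 weeks old. Every Zeb2KO library is labelled Fcgr1-crexZeb2fl/fl, with cre driven by the Fcgr1 (CD64) locus, but the published methods give Itgax-cre, active in CD11c-expressing cells, for the AMs and Clec4f-cre for the KCs, and which applies could not be settled. AMs had been gated as CD11c+SiglecF+F4/80+CD64+ cells, a gate that uses none of the 8 products. Cre does not act on both Zeb2 copies in every cell, and the study used surface EpCAM and CD101 to tell AMs without Zeb2 from those that kept a copy, so a Zeb2KO library can be a mixture.

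AMs live in the air spaces, clear surfactant and inhaled particles, and take their identity from local GM-CSF and TGF-β acting through transcription factors such as PPARγ. Their characteristic transcripts include membrane and secreted enzymes, lectins and genes better known from epithelium. Car4 encodes a carbonic anhydrase held on the outer membrane by a lipid anchor, Chil3 a secreted chitinase-like lectin also called Ym1, Ear1 and Ear2 secreted ribonucleases of the eosinophil-associated family, and Plet1 a lipid-anchored surface protein. Krt79 encodes a keratin known from hair follicle and sebaceous duct epithelium, Cpne5 a copine that binds membranes in response to calcium, and Rab44 an unusually large Rab GTPase with calcium-binding motifs. ZEB2 is a zinc finger repressor that binds E-boxes of the type CACCTG.

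Where these genes lie was read from GENCODE M21 on GRCm38. Car4 lies at chr11:84957786-84966044 and Chil3 at chr3:106147554-106167564. Krt79 lies at chr15:101929332-101940324 and Plet1 at chr9:50494525-50505482, inside the antisense gene Plet1os on the other strand. Cpne5 (chr17:29155556-29238167) and Rab44 (chr17:29114145-29148980) are neighbours that point at each other, with 6575 bases and 1 annotated gene between them. Ear1 (chr14:43818765-43875517) and Ear2 (chr14:44102654-44103534) are 227136 bases apart. The Ear genes are near-identical copies, which bears on how their reads could be assigned: their coding sequences were 95.1% identical (23 differing or unpaired positions of 468), and the last 300 bases of their transcripts, where 3′ reads fall, were 98.7% identical with 4 differing positions. Cell Ranger counts only reads that it can place in 1 gene, so the Ear counts are uncertain, reads that fit both may be missing, and the sum is given beside them. Ear10 is a further close copy, 97.0% identical to Ear2 in coding sequence (14 differing positions) and 91.0% in the last 300 bases. Chil3 and its copy Chil4 were 94.4% identical in coding sequence and 89.4% in the last 300 bases, so some Chil3 reads may be missing too. The last 90 coding bases of both transcripts are shown because they hold a single differing base, in capitals, and a read inside them that misses it fits both genes.
Ear1, last 90 coding bases: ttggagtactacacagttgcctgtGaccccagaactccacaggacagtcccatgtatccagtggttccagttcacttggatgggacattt
Ear2, last 90 coding bases: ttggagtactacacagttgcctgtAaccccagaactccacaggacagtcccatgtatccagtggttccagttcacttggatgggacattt

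The Ear copies extend upstream of the start. RefSeq promoter sequences on GRCm38.p6 were found for 7 of the 8 genes (all but Rab44), and the 250 bases before the start of Ear1 and Ear2 matched at 246 of 252 aligned positions (97.6%), with differing or unpaired bases in capitals. The RefSeq start of Ear1 lies inside the longer span that GENCODE gives the gene.
Ear1, chr14:43819640-43819889, minus strand: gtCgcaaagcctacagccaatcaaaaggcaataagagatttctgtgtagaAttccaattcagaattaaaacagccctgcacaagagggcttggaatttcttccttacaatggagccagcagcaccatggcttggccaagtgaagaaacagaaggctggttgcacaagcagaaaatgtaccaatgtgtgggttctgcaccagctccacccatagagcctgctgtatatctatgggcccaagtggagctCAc
Ear2, chr14:44102404-44102653, plus strand: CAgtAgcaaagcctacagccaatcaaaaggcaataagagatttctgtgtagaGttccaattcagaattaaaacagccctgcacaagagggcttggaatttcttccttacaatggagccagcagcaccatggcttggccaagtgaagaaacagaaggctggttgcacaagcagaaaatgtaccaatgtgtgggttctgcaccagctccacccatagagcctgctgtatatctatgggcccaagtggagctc
Krt79 and Plet1 are shown because theirs were the 2 of 7 upstream windows that held CACCTG on either strand (reverse CAGGTG), 27 bases before the start in Krt79 and 247 bases before it in Plet1. Plet1 also held AGGTCA, the core of nuclear receptor sites (reverse TGACCT), 62 bases before the start. The matches are in capitals.
Krt79, chr15:101940325-101940574, minus strand: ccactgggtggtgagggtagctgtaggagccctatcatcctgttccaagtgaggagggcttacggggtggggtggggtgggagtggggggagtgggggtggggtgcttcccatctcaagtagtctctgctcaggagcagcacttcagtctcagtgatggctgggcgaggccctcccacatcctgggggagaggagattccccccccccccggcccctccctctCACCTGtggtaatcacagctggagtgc
Plet1, chr9:50494275-50494524, plus strand: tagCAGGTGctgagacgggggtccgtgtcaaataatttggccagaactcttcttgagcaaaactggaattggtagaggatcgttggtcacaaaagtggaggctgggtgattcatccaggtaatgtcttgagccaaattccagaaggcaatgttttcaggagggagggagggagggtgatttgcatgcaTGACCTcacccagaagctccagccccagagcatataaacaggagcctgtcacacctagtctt
Among 32851 RefSeq promoters cut to the same 250 bases, CACCTG was found in 17.2%, AGGTCA in 14.0% and GAGGAAG, the core of a PU.1 site (reverse CTTCCTC), in 10.6%. GAGGAAG was in 0 of the 7 windows, and no match overlapped another. These are letters in a short window, not binding sites.

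The deposited tables held 11133411 to 47400786 UMIs per library, and 2830 to 6970 cells per library were kept after outlier cells (4.66% to 9.22%) and clusters with the markers of other cell types (0% to 23.2%, highest in SMs) were removed. The lung libraries kept 6970 WT and 6237 Zeb2KO AMs, with median depths of 3586.5 and 5674 UMIs per cell, so the Zeb2KO cells were the deeper. They shared 76 cell barcodes, the most of any pair by count. As a share of the smaller library this was 1.15%, below the 1.45% of WT AMs and Nr1h3fl/fl KCs. Levels are given in CPM, the usual unit in which the UMIs of every library are scaled to the same total of 1000000. Zeb2 itself was counted at 312 to 738 CPM in the 5 Zeb2fl/fl libraries, 513 in Nr1h3fl/fl KCs and 477 to 1747 in the Zeb2KO libraries. The deleted allele still makes a transcript with its 3′ end, so these counts check neither labels nor deletion. Every CPM below is taken over the summed UMIs of the kept cells, without division by length since 1 UMI marks 1 transcript end. With 1 library per group there is no error between animals, and the 95% Poisson and binomial intervals given cover counting error only.

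In the WT tissues, all 8 genes were highest in AMs, each by 4-fold or more over the next WT tissue, as were 5.25% of the 2974 genes at 50 CPM or more in WT AMs. That is the pattern by which the genes were chosen, so nothing is read from the count. The genes formed 3 grades. Krt79, Plet1, Chil3, Cpne5, Car4 and Rab44 stood at 2.38 CPM or less in every other WT tissue, and Ear2 was shared with KCs and SMs. Ear1 reached 14.1 CPM in Zeb2fl/fl KCs but only 2.38 in Nr1h3fl/fl KCs, so its grade rests on 1 of the WT KC libraries. By the log2 ratio to the next tissue with 1 CPM added to each level, which lowers the place of genes with low levels, Chil3 ranked 1, Plet1 2, Krt79 3, Car4 5, Cpne5 7, Ear1 15, Rab44 17 and Ear2 83 among the 2974 genes.

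**Figure D1:**
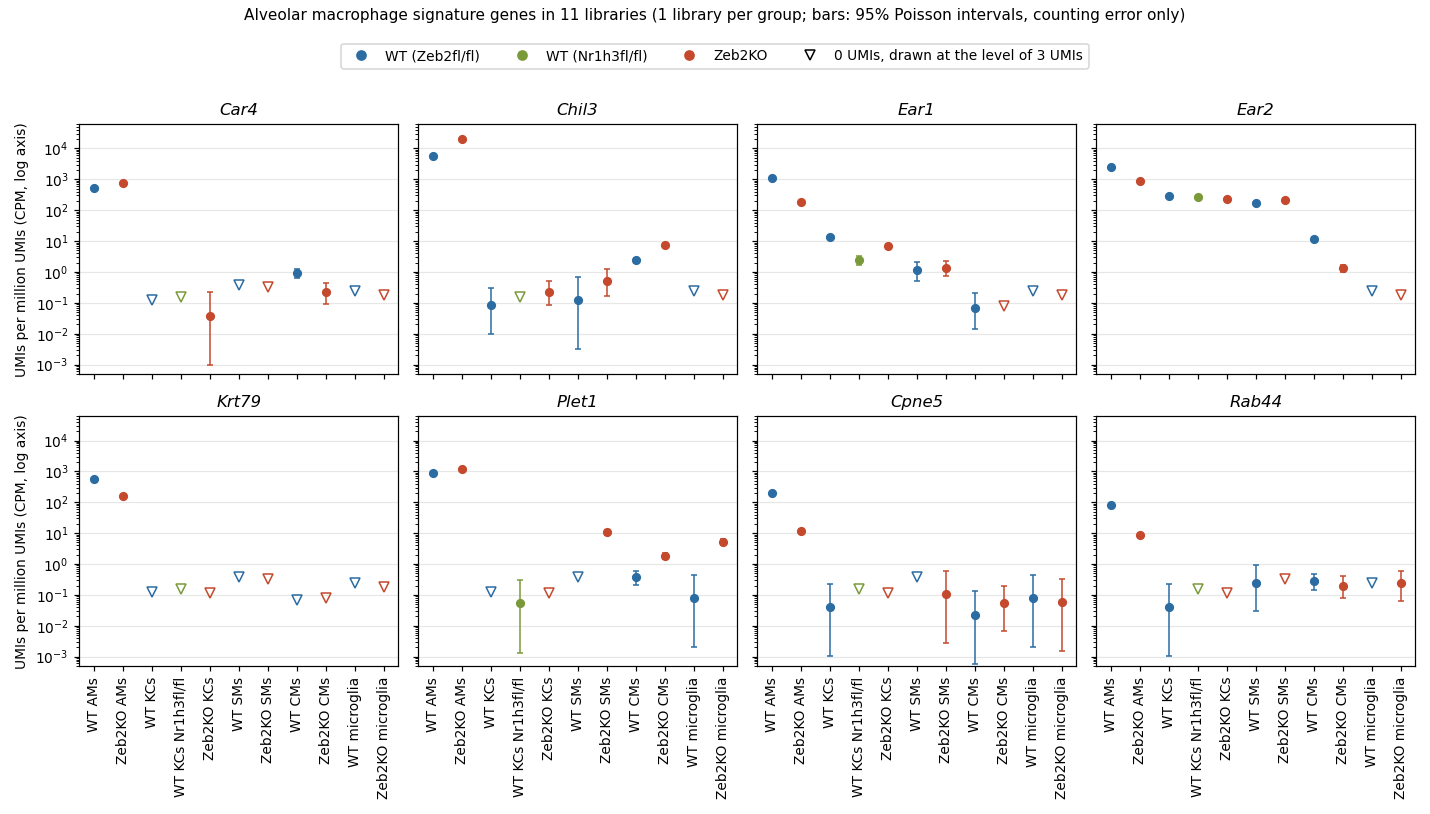
Level of the 8 genes in the 11 libraries, as CPM on a log axis, with 1 point per library and 95% Poisson intervals for counting error. Triangles mark 0 UMIs, drawn at the level of 3 UMIs. All genes are highest in lung, and Ear2 alone stays above 100 CPM in KCs and SMs.

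Krt79, the keratin, was the strictest. It had 575 CPM (567 to 585) in WT AMs and 159 CPM (155 to 163) in Zeb2KO AMs, and 0 UMIs in all 9 other libraries. With 3 UMIs (0.374 CPM) put in for the 0 of WT SMs, the shallowest library, the WT AM level was 1538-fold higher (lower counting limit 1251). Its mRNA was seen in 76.2% of WT AMs, 2.26 UMIs per cell on average.

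Chil3 was the most abundant of the genes and rank 12 of all genes in WT AMs, with 5766 CPM (5738 to 5795), and rank 4 in Zeb2KO AMs with 20669.5 CPM (20623 to 20716). Elsewhere it had 2.38 CPM in WT CMs and 7.61 in Zeb2KO CMs, and 0 to 6 UMIs in each of the KC, SM and microglia libraries. The WT AM level was 2421 times that of WT CMs (1996 to 2966).

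Car4 had 526 CPM (518 to 535) in WT AMs and 759 CPM (750.0 to 768) in Zeb2KO AMs. WT CMs had 0.925 CPM (40 UMIs), Zeb2KO CMs 0.219 CPM (8 UMIs), Zeb2KO KCs 1 UMI, and the other 6 libraries 0. WT AMs were 569 times WT CMs (418 to 797).

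Plet1 had 866 CPM (855 to 877) in WT AMs and 1179 CPM (1168 to 1190.4) in Zeb2KO AMs. The other WT libraries held 0 to 16 UMIs each, the most being 0.370 CPM in CMs, below the AM level by a factor of 2340 (1441 to 4094). Zeb2KO CMs, SMs and microglia held more, described further on.

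Cpne5 had 205 CPM (199 to 209.98) in WT AMs and 12.1 CPM (11.01 to 13.3) in Zeb2KO AMs, and 0 to 2 UMIs in each other library. Against the single UMI of WT microglia the ratio was 2523 with a counting interval of 453 to 99675. Rab44 was the least abundant, with 79.1 CPM (75.8 to 82.5) in WT AMs and 8.98 CPM (8.05 to 10.0) in Zeb2KO AMs. WT CMs held 12 UMIs of Rab44 (0.277 CPM), 285 times lower than WT AMs (163 to 552), and every other library held 0 to 7.

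The ribonucleases reached beyond the lung. Ear1 had 1103 CPM (1091 to 1116) in WT AMs, 185 CPM (181 to 189.5) in Zeb2KO AMs, 14.1 CPM in WT KCs, 6.96 in Zeb2KO KCs, 2.38 in Nr1h3fl/fl KCs, 1.12 in WT SMs, 1.37 in Zeb2KO SMs and 0 to 3 UMIs in CMs and microglia. WT AMs were 78.4 times WT KCs (70.5 to 87.5). Ear2 had 2472 CPM (2454 to 2491) in WT AMs and 907 CPM (898 to 917) in Zeb2KO AMs, 298 CPM in WT KCs, 276 in Nr1h3fl/fl KCs, 234 in Zeb2KO KCs, 178 in WT SMs and 209.9 in Zeb2KO SMs. It stood at 12.05 CPM in WT CMs and 1.31 in Zeb2KO CMs, and at 0 UMIs in both microglia libraries, so its order among WT tissues was AMs, KCs, SMs, CMs, microglia with no overlap of neighbouring counting intervals. Ear1 took 30.9% of the summed Ear1 and Ear2 UMIs in WT AMs, against 4.51% in WT KCs, 0.856% in Nr1h3fl/fl KCs and 0.627% in WT SMs.

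The lung sort was checked against other cells. The 10 AM markers summed to 11542 CPM in WT and 24016 CPM in Zeb2KO AMs, none at 0. That list holds 5 of the 8 genes, Chil3 above all, while the other markers differed in both directions: Siglecf from 126 to 69.4 CPM, Fabp4 from 398 to 75.7, Pparg from 98.5 to 91.6, Itgax from 289 to 501 and Marco from 186 to 599. Of the markers of eosinophils, which also make Ear proteins, Prg2, Epx and Il5ra were at 0 UMIs in both lung libraries, Ccr3 had 2 UMIs in WT and 1 in Zeb2KO AMs, and Ear6 went from 250 to 1618 UMIs. The 9 neutrophil markers summed to 24.5 CPM in WT and 240 CPM in Zeb2KO AMs, mostly Cxcr2 and Mmp8, with 5 of them at 0 in WT and Ngp, Camp and Elane at 0 in Zeb2KO AMs. The 5 monocyte markers went from 3.61 to 65.1 CPM, 54.8 of it Ly6c2 in Zeb2KO AMs. The 7 lung epithelium markers summed to 139 and 161 CPM. The 6 gut epithelium markers, which include the epithelial genes Epcam, Krt8 and Krt18, went from 30.02 to 631 CPM, with Cdx2 at 0 in both. The part of these transcripts in the results below was not tested.

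Transcripts of the genes were also found in lung cells that were left out, 23 in the WT and 39 in the Zeb2KO library with median depths of 3152 and 5285 UMIs. Chil3 stood at 1381 CPM in the WT and 7525 CPM in the Zeb2KO left-out cells, 23.9% and 36.4% of the level in kept cells. Among WT left-out cells the other genes stood at 8.76% (Krt79) to 30.6% (Car4) of the kept level, each on 1 to 58 UMIs. Among Zeb2KO left-out cells Krt79 stood at 80.1% of the kept level (27 UMIs), Car4 at 53.3%, Rab44 at 52.4% (1 UMI), Plet1 at 46.3%, Ear2 at 44.1%, Ear1 at 22.9% and Cpne5 at 0 UMIs. Shares of cells with a UMI are therefore given below beside the share in these cells. With 22 WT and 39 Zeb2KO cells after thinning, those shares are rough. The binomial interval was 32.2% to 75.6% for Chil3 in WT and 2.87% to 24.2% for Krt79 in Zeb2KO. At up to 80.1% of the kept level, these cells do not give a background level.

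In Zeb2KO AMs the genes split. Cpne5, Rab44, Ear1, Krt79 and Ear2 were lower than in WT AMs by more than 2-fold, Chil3 was higher by more than 2-fold, and Car4 and Plet1 were slightly higher. So 5 of the 8 were lower at the 2-fold mark, where 7.37% of the 5807 genes at 20 CPM or more were lower, and 1 was higher, where 4.36% were higher. The genes were chosen with this contrast in view, and the counts are descriptive.

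The size of each change depended on scaling. Zeb2KO AMs put 32.1% of their UMIs into the 50 most abundant lung genes against 24.5% in WT AMs, and the log2 ratio of all genes at 20 CPM or more had a median of -0.31 by total UMIs. Robust scaling raised the level of Zeb2KO over WT AMs, by 0.27 on the log2 scale with TMM factors, 0.28 with DESeq2 size factors and 0.15 when the 50 most abundant genes were left out of the totals, and slightly less for low genes because of the pseudocount. It turned the background around, from 7.37% lower and 4.36% higher to 3.39% lower and 6.36% higher with TMM. The 8 genes kept their direction and their side of the 2-fold mark under all 4 scalings.

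**Figure D2:**
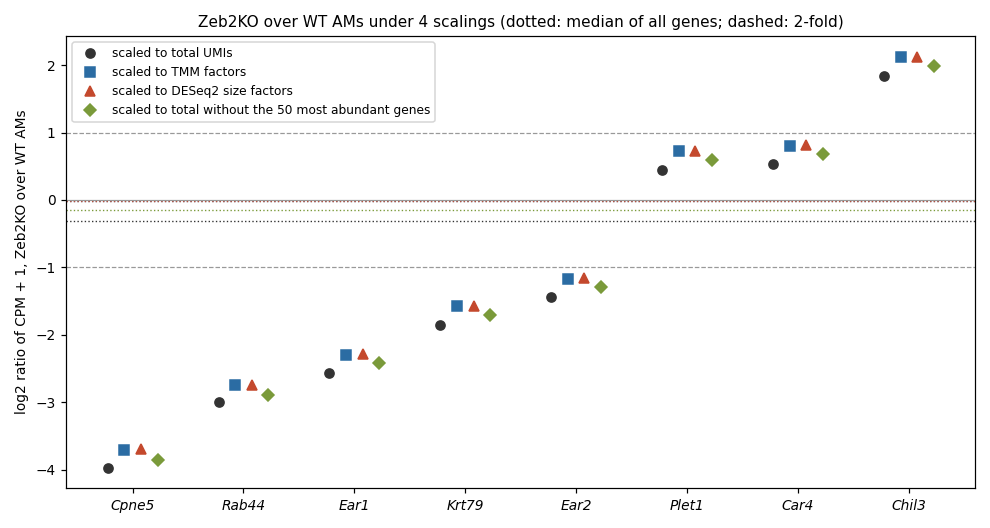
Log2 ratio of Zeb2KO over WT AMs for the 8 genes under 4 scalings, with the median of all genes dotted and 2-fold dashed. Cpne5 lies lowest at -3.97 and Chil3 highest at 1.84 by total UMIs, and no gene crosses 0 or the 2-fold lines when the scaling changes.

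Cpne5 went from 5607 UMIs in WT to 450 in Zeb2KO AMs, 16.9-fold lower (log2 ratio -3.97 by total UMIs and -3.71 with TMM). Per kept cell this was 0.804 UMIs against 0.0722. It was detected in 52.0% of WT and 5.85% of Zeb2KO AMs, and in 26.4% and 2.42% when each cell was thinned to 1500 UMIs. Its share among thinned left-out cells was 4.55% in WT (1 of 22 cells) and 0 of 39 cells in Zeb2KO. Among the 8 genes this was the furthest departure in either direction.

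Rab44, its neighbour on chromosome 17, went from 2168 to 334 UMIs and was 8.80-fold lower (log2 ratio -3.004, TMM -2.75). It was seen in 26.4% of WT and 5.08% of Zeb2KO AMs, or 12.01% and 2.18% after thinning, and in 0 thinned left-out cells of either library. Across single thinned cells, Cpne5 and Rab44 counts had r = -0.0022 over 6942 WT and 0.063 over 6237 Zeb2KO AMs. Both genes were sparse there, which keeps r small, so these values neither show nor exclude a relation.

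Krt79 went from 15774 to 5898 UMIs, 3.63-fold lower (log2 ratio -1.85, TMM -1.58). Its thinned share went from 52.5% to 19.9%, with 9.09% and 10.3% in left-out cells.

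Both Ear genes were lower, but unequally. Ear1 went from 30241 to 6881 UMIs, 5.96-fold lower (log2 ratio -2.57, TMM -2.30), and Ear2 from 67772 to 33727 UMIs, 2.73-fold lower (log2 ratio -1.45, TMM -1.17). Their sum, which a different split of the counted reads between Ear1 and Ear2 would not change, went from 3576 to 1092 CPM (log2 ratio -1.71). The share of Ear1 in the sum went from 30.9% to 16.9%. After thinning, Ear1 was seen in 70.8% of WT and 20.7% of Zeb2KO AMs, beside 22.7% and 5.13% in left-out cells, and Ear2 in 92.2% and 61.0%, beside 45.5% and 25.6%. Within cells, Ear1 and Ear2 counts had the closest relation of any pair among the 8, at r = 0.33 in WT and 0.45 in Zeb2KO AMs, as a description across cells of 1 library whose reads may be shared between the copies.

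Chil3 took the opposite course, from 158055 to 768404 UMIs and 3.58-fold higher (3.57 to 3.60, log2 ratio 1.84, TMM 2.12). A cell held 22.7 UMIs on average in WT and 123 in Zeb2KO AMs, and Chil3 alone made up 0.577% of all WT and 2.07% of all Zeb2KO UMIs. Thinned shares were 99.7% and 98.8%, too close to the ceiling to compare, and 54.5% and 87.2% of left-out cells also held a UMI. Because of Chil3, the 8 genes together went from 1.16% to 2.39% of UMIs, while the other 7 went from 0.583% to 0.321%.

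Car4 was 1.44-fold higher in Zeb2KO AMs (1.41 to 1.47, log2 ratio 0.53, TMM 0.80) and Plet1 1.36-fold higher (1.34 to 1.38, log2 ratio 0.45, TMM 0.72). Both ratios lay above the median of all genes, which was -0.31 by total UMIs and -0.02 with TMM. Car4 was seen in 46.1% of thinned WT and 44.0% of thinned Zeb2KO AMs, beside 9.09% and 17.9% in left-out cells, and Plet1 in 69.8% and 77.0%, beside 13.6% and 25.6%. The Zeb2KO left-out share of Car4 includes cells with endothelium markers, which had Car4 at 1067 CPM. Raw shares were 69.8% and 67.7% for Car4, and 92.0% and 95.6% for Plet1.

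Counting how many of the 8 a single AM showed showed fewer of them per Zeb2KO cell. In thinned cells the median was 5 genes in WT and 3 in Zeb2KO AMs, and 4 or more were seen in 84.9% of WT and 40.5% of Zeb2KO AMs. All thinned WT AMs showed at least 1 of the 8, and 0.561% of Zeb2KO AMs showed none, a measure carried by Chil3, which was also seen in 54.5% and 87.2% of left-out cells. Among KCs of the 3 libraries 65.2% to 69.9% showed none, and most of the rest showed 1 gene.

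**Figure D3:**
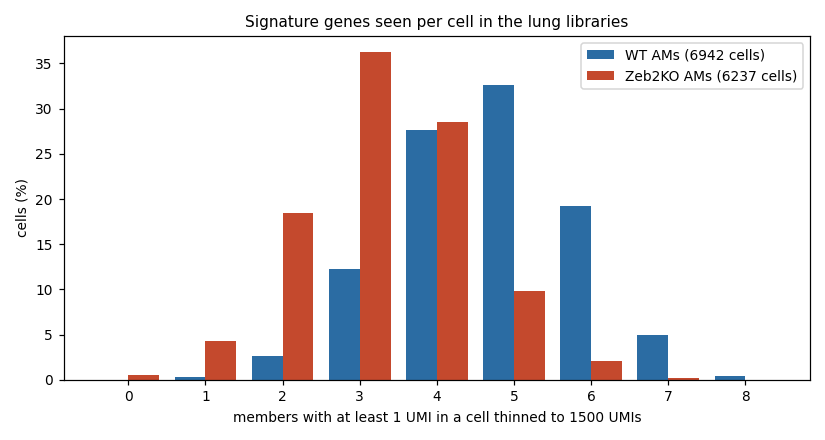
Share of AMs, in percent, by the number of the 8 genes with at least 1 UMI, after thinning each cell to 1500 UMIs (6942 WT and 6237 Zeb2KO cells, 1 library each). The WT bars peak at 5 genes and the Zeb2KO bars at 3.

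The Zeb2KO AMs were not uniform. Lung cells were clustered without the 8 genes, their relatives or other AM genes, and 4 clusters, numbered 1, 2, 5 and 9, held Zeb2KO cells at 9 times the WT share or more. They took 5581 of 6237 Zeb2KO AMs (89.5%, binomial interval 88.7 to 90.2) and 54 WT cells. Cluster 1 (3287 Zeb2KO cells) had Epcam at 436 CPM, Cd101 at 52.5 and S100a8 at 19878. Cluster 2 (1684 Zeb2KO cells) had Epcam at 72.7 CPM, Cd101 at 28.4 and S100a8 at 602. In these genes it lay closer to the largest WT cluster with 19.2, 16.5 and 19.6 CPM. In Marco it lay closer to cluster 1 (573 CPM, against 667 in cluster 1 and 167 in that WT cluster). The same held for Itgax (575, 491 and 302 in that order) and Fabp4 (116, 56.8 and 350). Siglecf (109, 56.6 and 128) lay closer to WT, and Pparg (98.7, 93.5 and 94.8) differed little. The labels do not say which cells kept a copy of Zeb2. The paper's genomic PCR found EpCAM-negative AMs of cre mice heterozygous for the deletion, and its main group of AMs without Zeb2 showed higher Zeb2 counts. Zeb2 counts here were 572 CPM in cluster 1, 265 in cluster 2 and 339 in the largest WT cluster. Whether the clusters match those cells was not tested, and cluster levels are described without a test.

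Of the genes that were lower in Zeb2KO AMs, Cpne5 and Rab44 were nearly absent from cluster 1 and all 5 were higher in cluster 2. Cpne5 stood at 0.831 CPM in cluster 1 (19 UMIs in 3287 cells) and 50.05 CPM in cluster 2, and Rab44 at 1.79 and 33.6 CPM, while the WT clusters of 100 cells or more ranged from 98.0 to 221 CPM for Cpne5 and 61.6 to 90.4 for Rab44. Ear1 stood at 30.9 CPM in cluster 1 and 688 in cluster 2, the latter inside the WT range of 470 to 1879. Ear2 stood at 562 CPM in cluster 1 and 2121 in cluster 2, again inside the WT range of 1092 to 4217. Krt79 differed less between them, with 128 and 261 CPM against 434 to 654 in WT clusters. So each of the 5 genes that were lower in the whole library was lower in cluster 1 than in any WT cluster of that size, and in cluster 2 the Ear genes were not.

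Among Zeb2KO clusters of 100 cells or more, the genes that were higher in Zeb2KO AMs were highest in cluster 1, and the 27 Zeb2KO cells of cluster 12 had more still (Chil3 30383, Car4 2109 and Plet1 1430 CPM). Chil3 stood at 26690 CPM there and 8898 in cluster 2, against 4779 to 7958 in WT clusters. Car4 stood at 1029 CPM in cluster 1 and 331 in cluster 2, against 201 to 791 in WT, so that among the 4 clusters cluster 1 alone lay above the WT library. Plet1 differed least between Zeb2KO clusters of that size (4.32-fold from highest to lowest), with 1346 CPM in cluster 1 and 1009 in cluster 2 against 630 to 961 in WT clusters.

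Cluster 5 (388 Zeb2KO cells, led by Sdr16c6 and Gpa33) had Chil3 at 19965 CPM with Ear1 at 236, Ear2 at 1334, Cpne5 at 10.7 and Car4 at 303. Cluster 9 (222 Zeb2KO cells, led by C1qa and MHC II genes) was low in all: Car4 at 94.5 CPM, Chil3 at 3644, Ear1 at 26.6, Ear2 at 232, Krt79 at 18.7, Plet1 at 312, with Cpne5 at 2 and Rab44 at 4 UMIs. Siglecf (26.6 CPM), Marco (80.3), Pparg (41.3) and Fabp4 (16.4) were also below the WT library in cluster 9, and Itgax (494) above it. The paper proposes that a minor group of AMs high in MHC II genes might come from monocytes. Whether cluster 9 matches that group was not tested. In the 656 Zeb2KO AMs outside these clusters, Ear1 (282 CPM), Ear2 (952), Krt79 (187), Cpne5 (19.6) and Rab44 (11.6) were still below the WT library and Chil3 (13408) above it. Car4 at 440 CPM was there below the WT library (log2 ratio -0.26) and Plet1 at 923 close to it (0.09). These 656 cells were themselves mixed. Those of clusters 7, 8, 11 and 12 had Epcam at 158 to 343 CPM and S100a8 at 5479 to 34201. The 60 in cluster 0 had Epcam at 79.5 CPM and S100a8 at 526, with Ear1 at 471, Ear2 at 1437, Krt79 at 404, Cpne5 at 61.2 and Rab44 at 55.0. The part of this mixture in the pooled levels was not tested. Among WT clusters of 100 cells or more, Ear1, Car4 and Ear2 varied most, by 3.86-fold or more: cluster 3 (985 cells, with Clec4b1, Slpi and Fabp4 among its leading genes) had Ear1 at 1879 and Ear2 at 4217 CPM, while Rab44, Krt79, Plet1 and Chil3 differed by 1.47- to 1.67-fold between the highest and lowest. Smaller WT clusters lay further out, with Krt79 at 217 and Plet1 at 417 CPM in cluster 11 (45 cells) and Chil3 at 12548 CPM and Rab44 at 0 UMIs in cluster 12 (29 cells).

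**Figure D4:**
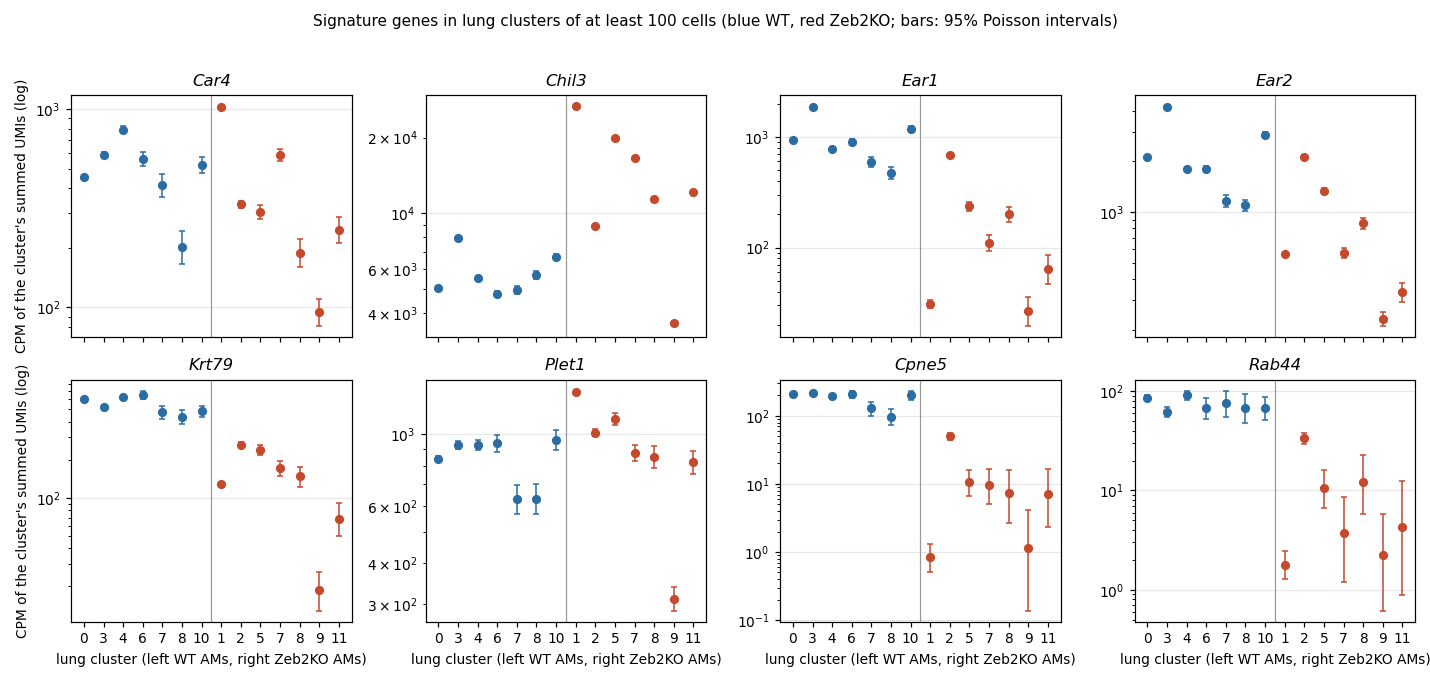
CPM of the 8 genes on log axes in lung clusters of 100 cells or more, WT AMs in blue on the left and Zeb2KO AMs in red on the right of each panel, with 95% Poisson intervals. In cluster 1 the points of Ear1, Cpne5 and Rab44 lie far below those of cluster 2, and the points of Car4 and Chil3 above them.

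The other macs served to ask whether loss of Zeb2 moved the same genes outside the lung. The 4 other pairs were fitted together by edgeR's quasi-likelihood test with tissue as a block. The low WT levels in these tissues, and the response to loss of Zeb2, were among the values by which the genes were chosen. The fit is therefore not independent of the choice, and its values for the genes support nothing further. Of the 8, 4 passed the filter on low counts, and 0 had an adjusted p under 0.05, as did 0 of all 13617 genes tested (1456 genes, 10.7%, had an unadjusted p under 0.05, and DESeq2 on the same design called 322 genes, none of the 8). Each ± in this fit is an approximate SE, the log2 fold change divided by the square root of the test's F statistic. Chil3 had a log2 fold change of 1.63 ± 0.37 (edgeR adjusted p = 0.316, higher in the 3 pairs with any UMI). Plet1 had 4.20 ± 1.03 (edgeR adjusted p = 0.342, and 0.0501 with DESeq2 to 0.647 without the spleen pair over the alternatives run). With 0.370 CPM at most in these WT libraries, Plet1 passed the filter only through Zeb2KO libraries. Its direction was therefore fixed in advance, and its p-values support nothing. Ear1 had -0.74 ± 0.54 (edgeR adjusted p = 0.673) and Ear2 -0.95 ± 0.71 (edgeR adjusted p = 0.679). Sizes depended on single pairs. Without the colon pair Ear2 was at -0.07 and Plet1 at 6.82, and Chil3 no longer passed the filter. Without the spleen pair Ear2 was at -1.66, Ear1 at -1.22 and Plet1 at 3.42, without the liver pair Ear1 was at -0.36 and Ear2 at -1.31, and without the brain pair Plet1 was at 3.61. Tissues stood in for replicates in this fit.

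Pair by pair, Plet1 was the gene with UMIs where WT macs had almost none. Microglia went from 1 UMI in WT to 89 in Zeb2KO (0.0811 to 5.26 CPM, ratio 64.9 with a counting interval of 11.3 to 2590). SMs went from 0 to 102 UMIs, 28.8-fold higher with 3 UMIs put in for the 0 (lower counting limit 23.0). CMs went from 16 to 67 UMIs (4.96 times, 2.84 to 9.16), and KCs held 0 in both. None of these levels reached the 20 CPM used for 2-fold calls, and the highest was 10.8 CPM in Zeb2KO SMs. No gene of the 8 reached it in microglia, where 8.34% of genes passed 2-fold (4.27% higher and 4.07% lower), or in CMs, where 1.56% did (1.07% higher and 0.486% lower).

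The Plet1 transcripts were unevenly spread. In the spleen, 93 of the 103 UMIs seen before other cell types were removed (90.3%) lay in cluster 5, which held 694 Zeb2KO cells and 1 WT cell and was led by Il1f9, Skint3 and Plet1 itself, at 39.1 CPM. In Zeb2KO microglia, cluster 6 (80 cells, led by Ifitm1, Lgals3 and Gpnmb, with 74 WT cells) had 45.3 CPM and the other clusters 0 to 4.99 CPM. Most of the microglial UMIs (66 of 89) nevertheless lay in the larger clusters apart from WT (3151 cells at 4.04 CPM). Of the 10 AM markers, Marco, Fabp4, Pparg, Chil3, Car4, Ear1, Ear2 and Krt79 were at 0 UMIs in both microglia libraries, while Siglecf went from 30.6 to 408 CPM and Itgax from 5.03 to 36.8 CPM. In the colon, the left-out gut epithelium cells held Plet1 at 90.5 CPM in WT (23 UMIs) and 170 CPM in Zeb2KO (34 UMIs), while the gut epithelium markers in kept cells summed to 29.3 CPM in WT and 22.0 in Zeb2KO CMs, and their part in the Plet1 value was not tested. The antisense gene Plet1os had 0 and 57 UMIs in WT and Zeb2KO microglia, 6 and 17 in CMs, 32 and 75 in KCs, 0 and 5 in SMs and 14 and 24 in AMs. Whether reads of the overlapping pair were split by strand is not given in the sources used here.

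**Figure D5:**
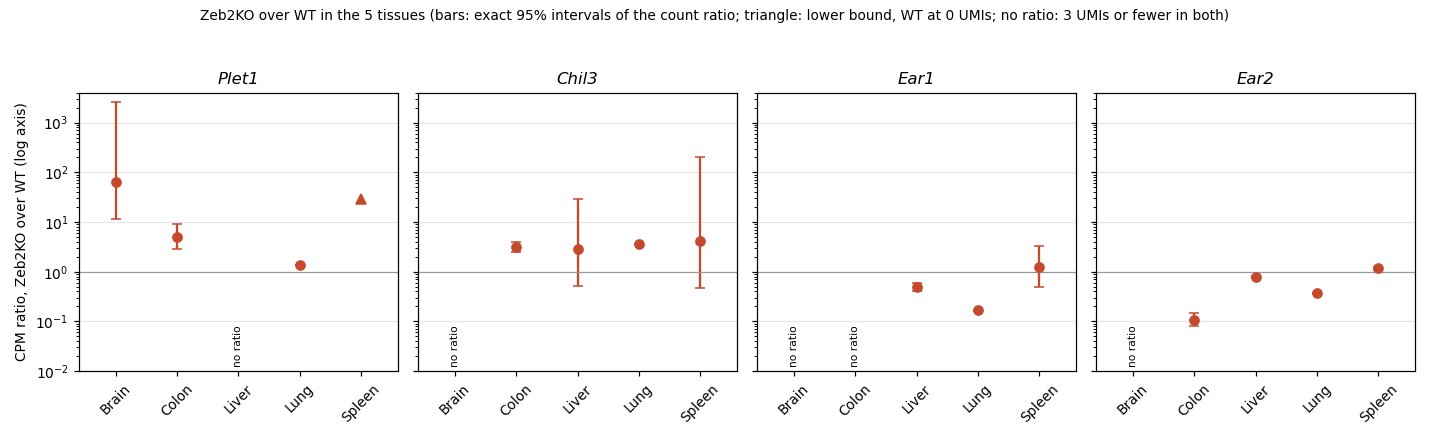
Ratio of CPM, Zeb2KO over WT, on a log axis for Plet1, Chil3, Ear1 and Ear2, by tissue, with exact 95% intervals of the count ratio. Plet1 lies above 1 in brain, colon, lung and spleen (drawn there with 3 UMIs in place of 0), Chil3 above 1 wherever a ratio exists (with intervals that include 1 in liver and spleen), and Ear2 is lowest in colon.

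Outside the lung, Chil3 had more than 6 UMIs per library in the colon alone, with 103 UMIs in WT and 278 in Zeb2KO CMs (3.19 times, 2.54 to 4.05). KCs went from 2 to 6 UMIs, SMs from 1 to 5, and microglia had 0 in both. Different CMs carried it. Counted before other cell types were removed, 84 of 105 UMIs in WT lay in cluster 6 (556 cells at 14.7 CPM, led by Ear2, Ccr2 and Cd209a), and 204 of 280 in Zeb2KO lay in cluster 4 (762 cells at 28.3 CPM, led by Hp, Ms4a1 and Mmp8), where WT had 21 cells. The few Zeb2KO cells of cluster 6 (51) had Chil3 at 71.2 CPM. Neutrophil markers summed to 2.29 CPM in WT and 28.2 CPM in Zeb2KO CMs, with Ngp, Camp and Elane at 0 UMIs in both, and their part in the Chil3 value was not tested.

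Ear2 in the colon had most of its WT UMIs in the same cluster. Its 521 UMIs in WT CMs became 48 in Zeb2KO CMs (0.109 times, 0.0794 to 0.147), and before other cell types were removed 340 of 526 WT UMIs lay in cluster 6, which made up 12.1% of WT and 1.25% of Zeb2KO colon cells at that stage. Ear2 was lower in Zeb2KO cells both within cluster 6 (59.4 against 12.9 CPM, the latter on 6 UMIs) and in the dividing cells of cluster 9 (39.4 against 4.54 CPM). The part of the cluster shares in the Ear2 value was not tested. In the 2 tissues where Ear2 reached 20 CPM outside the lung, neither pair differed by 2-fold: it was 234 against 298 CPM in KCs (log2 ratio -0.35, with 4.69% of genes past 2-fold, 3.48% higher and 1.2% lower) and 209.9 against 178 CPM in SMs (0.24, with 3.23% past 2-fold, 2.39% higher and 0.844% lower). Nr1h3fl/fl KCs had 276 CPM, between the other KC libraries, with a log2 ratio of Zeb2KO over Nr1h3fl/fl KCs of -0.24.

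Ear1 in KCs shows how far 2 control libraries can lie apart. WT KCs held 341 UMIs and Nr1h3fl/fl KCs 45, a log2 ratio of -2.16. Among genes at 20 CPM or more, 1.37% passed 2-fold between these controls (0.504% higher and 0.864% lower in Nr1h3fl/fl KCs). Ear1 stayed below that level in every KC library, so such shares do not describe genes as low as Ear1. Zeb2KO KCs held 179 UMIs of Ear1, so the library lay below 1 control (-0.92) and above the other (1.23). Against the latter, 8.3% of genes at 20 CPM or more passed 2-fold (4.24% higher and 4.07% lower). The Ear1 plus Ear2 sum was 312, 278 and 241 CPM in the same order of WT, Nr1h3fl/fl and Zeb2KO KCs. Car4 in CMs went from 40 to 8 UMIs (0.237 times, 0.0957 to 0.513), at levels under 1 CPM in both. Krt79, Cpne5 and Rab44 gave no ratio outside the lung that counting could resolve, with 0 to 12 UMIs in each library.

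Relatives of the genes that reached 20 CPM in any library mostly did not share their lung pattern. In their families, 1 keratin and 1 copine passed the mark of 4-fold over every other WT tissue that the 8 genes passed. Among ribonucleases, Ear6 went from 9.12 CPM in WT to 43.5 in Zeb2KO AMs (log2 ratio 2.14), opposite to Ear1 and Ear2, whereas Rnase4, Rnase6 and Ang were highest in Zeb2KO microglia (1062, 296 and 415 CPM) and had 53.0, 33.4 and 13.3 CPM in WT AMs. The keratins differed among themselves: Krt8 went from 0.255 to 242 CPM and Krt18 from 0.109 to 38.8 CPM in AMs, Krt19 had 549 and 485 CPM, and Krt10 was highest in Nr1h3fl/fl KCs at 21.2 CPM. Of the copines, Cpne3 (129 to 103 CPM) and Cpne8 (79.1 to 83.0) differed by less than 2-fold between the AM libraries, and Cpne2 was highest in WT CMs (33.2 CPM). The chitinase relative Chid1 was highest in Zeb2KO microglia (28.0 CPM) and Car2 in WT SMs (29.4 CPM).

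Other AM genes, from a list drawn up with earlier results known, lay in both directions. Of the 51 found in the count tables, only 16 passed the mark of 4-fold over every other WT tissue. Of 49 at 20 CPM or more in a lung library, 8 were higher and 11 lower by 2-fold in Zeb2KO AMs, beside 4.36% and 7.37% of all genes, with a median log2 ratio of -0.17 beside -0.31. With TMM the split turned to 12 higher and 6 lower, beside 6.36% and 3.39% of all genes, with a median of 0.11. By role, 2 of 18 genes of lipid and surfactant handling were higher and 4 lower, 1 and 3 of 11 surface genes, 2 and 3 of 8 transcription factors, and 3 and 1 of 12 secreted products. With TMM these became 3 higher and 2 lower, 2 and 1, 2 and 2, and 5 and 1, in the same order. The most abundant were Lyz2, the macrophage lysozyme (11841 to 21548 CPM), the chemokine Ccl6 (3883 to 9519) and the tetraspanin Cd9 (3670.5 to 4338). The highest ratios were those of Wfdc17 (log2 6.02, 73.6 to 4852 CPM), Inhba, an activin subunit (5.73), and the desaturase Scd1 (4.12). The lowest were those of the fatty acid carrier Fabp4 (-2.38), the transcription factor Egr2 (-2.13) and the protease inhibitor Slpi (-2.09).

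The genes whose level followed each of the 8 most closely over the 11 libraries were found by Pearson's r of log2(CPM + 1) among 7845 genes, as a description in which 2 lung libraries carry most of the range. Cpne5 and Rab44 were each other's nearest (r = 0.997), followed for both by the potassium channel partner Kcnip4 (0.996) and Wfdc10 (0.980 and 0.984). Krt79 was nearest to Mfsd7c, Kcnn3 and Vstm2a (0.999 each), and Chil3 to the protease gene Ctsk (0.996), Tbc1d2 (0.991) and Car4 (0.988). Car4 was nearest to Sftpc and Scgb1a1 (0.997 each), which are epithelial secretory genes, and Gm6116 (0.996). Sftpc had 22.8 CPM in WT and 24.4 in Zeb2KO AMs, and the part of epithelial RNA in the Car4 level was not tested. Ear1 was nearest to Agpat9 (0.968), Zcrb1 (0.964) and Prr13 (0.960), and Ear2 to Gm10269 (0.984), Pygl (0.983) and Ptger2 (0.977). Plet1 was nearest to L1cam (0.976), Adipor2 (0.971) and Klhdc4 (0.968).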

How the data were processed

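Droplet single-cell 3′ RNA sequencing (10x Genomics) was used on sorted macs of 5 tissues. The authors processed the reads with Cell Ranger against mm10 and deposited, for each library, a table of unnormalised UMI counts (27998 genes by cells). KCs and AMs were sequenced on a NextSeq500 and the other macs on a HiSeq. The annotation version and strand setting are not given in the sources used here. From the deposited counts, cells over 3 median absolute deviations from the median in UMIs, genes or mitochondrial share were removed, as the study's methods describe. Cells were clustered per tissue (2000 variable genes, 30 components, 15 neighbours, Leiden at resolution 0.8, leidenalg 0.10.2, scikit-learn 1.9.0) without the 8 genes, their relatives and other AM genes, and clusters with markers of other cell types were left out. No doublet caller was run, and dividing cells were kept.

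UMIs were summed per library, since cells are not replicates, and scaled to CPM by total UMIs. Log2 ratios used a pseudocount of 1 CPM, which understates changes of low genes. Folds against 0 UMIs used 3 UMIs as the floor, and shares of cells with a UMI were taken after thinning to 1500 UMIs, which left out 28 WT AMs, 829 WT SMs and 534 Zeb2KO SMs. A 2-fold call needed 20 CPM in the higher library. The 4 pairs outside the lung were tested with edgeR 4.0.16 (TMM, quasi-likelihood, Benjamini-Hochberg over all genes, R 4.3.3), with DESeq2 1.42.0 as an alternative. The edgeR code was tested on simulated data in which well-counted genes changed by the same amount in every tissue. That simulation does not cover genes with counts as low as those of the 8 outside the lung, or responses that differ between tissues. The genes, lists and tests were chosen with earlier results of these data known. Named besides the 8 were the 3 nearest genes of each across libraries, relatives reaching 20 CPM, and the 3 most abundant and the 3 highest and lowest ratios among other AM genes. Alignments used biopython 1.88. Scalings, pseudocounts, floors, cell filters, cluster resolution and leaving out each pair were varied.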

Additional observations from a re-analysis of the deposited data

Results flagged for a closer look

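Among the tissues in which Ear2 reached 20 CPM, its log2 ratio of Zeb2KO over WT was -1.45 in AMs and -0.35 in KCs but 0.24 in SMs. In CMs, below that level, Ear2 had 521 UMIs in WT and 48 in Zeb2KO cells (log2 ratio -2.50). With 1 library per group this difference between tissues was not tested.

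Signal of the genes was also present in cells that were left out as other cell types. In the colon, cells with gut epithelium markers had Plet1 at 90.5 CPM in the WT library and 170 CPM in the Zeb2KO library, above the kept CMs of both. In the liver, cells with dendritic cell markers had Ear2 at 305 CPM in the Zeb2KO library. In the lung, 9 cells with endothelium markers had Car4 at 1067 CPM in the Zeb2KO library. In the spleen, left-out cells led by S100a9, S100a8, Camp and Ngp had Chil3 at 90.7 CPM in the Zeb2KO library.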

How the results depend on the processing

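The signs of all 8 lung ratios were kept under each of 11 alternatives (scaling, pseudocount, all deposited barcodes, mean over cells, and, chosen after seeing the data, subsets of clusters), with ranges of 0.36 to 0.81 for Car4, 1.74 to 2.13 for Chil3, -2.66 to -2.09 for Ear1, -1.49 to -1.14 for Ear2, -1.89 to -1.57 for Krt79, 0.42 to 0.73 for Plet1, -4.07 to -3.42 for Cpne5 and -3.12 to -2.54 for Rab44. The counts of 5 lower and 1 higher were the same under all alternatives run. Outside the lung, the number of genes called was 0 with edgeR, 322 with DESeq2 on the same design, 1 with all deposited barcodes, and 0 to 2 when each pair was left out in turn, the 2 calls coming without the spleen pair. The share of Zeb2KO AMs in clusters apart from WT was 89.5% and became 90.3% at resolution 0.4. The cause of these differences was not tested. The fit outside the lung already paired the libraries by tissue, and the labels give no replicate numbers to pair by. Depth limits Rab44 and all genes but Ear2 outside the lung, where most libraries held 0 to 12 UMIs.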
